A study of Schima superba and Cryptocarya concinna with 24 samples.

Results

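Young and mature leaves of Schima superba seedlings grown under shade were compared across their assembled transcripts (unigenes). Taken were those whose FPKM reached 1 in 3 or more of the 6 low light libraries, 44579 of the 57053 unigenes in the deposited table. FPKM are fragments counted on a unigene, scaled to its length and to the size of the library. Of the 44579, 26297 reached that level in all 6 libraries, 3932 in all 3 young and no mature libraries, and 961 in all 3 mature and no young libraries, with 13389 in other combinations. Just inside the limit lay 7595 unigenes that reached it in exactly 3 libraries, with a median of mean FPKM of 1.61, and just outside 4563 that did so in 2, with a median of 0.912. A best protein database hit was listed for 27162, and 14801 of these carried a usable description, from which gene names are taken.

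Schima superba is an evergreen broad-leaved tree of subtropical Asian forests. A leaf first grows by cell division and by loosening and extension of the cell wall while it lays down its cuticle, and young leaves of many subtropical trees carry red or phenolic pigments at that stage. With maturity, division stops, chloroplasts complete their photosynthetic machinery and the leaf turns from importing to exporting sugar. Under shade, light for photosynthesis is scarce, and leaves commonly hold much antenna chlorophyll relative to carbon-fixing enzymes.

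Seedlings came from a subtropical evergreen forest and all those used for this comparison grew under a black nylon net, at 30% of full sunlight. Leaves of 2 ages, labelled young and mature, gave 3 libraries each. Seedlings of the same species in 100% sunlight, also with 3 young and 3 mature libraries, served for comparison and for the estimate of spread. The labels give neither the leaf age in days nor whether each replicate is a plant of its own. P-values therefore cover the spread among these samples alone, which may be technical.

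The 6 libraries each summed to 834156 to 867163 FPKM. Steps between low FPKM values put their depths at 0.992 to 1.01 times that of young replicate 1, while numbers of reads are not given in the sources used here. Young replicates 2 and 3 were more alike than any other pair of replicates, with an SD of log2 ratios of 0.368 against 0.765 to 1.37 for the others. The first principal component of the 6 libraries held 70.7% of the variance and separated the ages, and the second, with 12.2%, set the libraries numbered 1 of both ages apart. Summed FPKM of leaf mesophyll markers (Rubisco small subunit and chlorophyll a-b binding proteins) ran from 35658 to 50524 in young and from 64781 to 81355 in mature leaves, with 1 of 56 such unigenes at 0 throughout. No description matched the marker list for insects and fungi.

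As deposited, expression was broader in young leaves and more concentrated in mature ones. Unigenes at an FPKM of at least 1 numbered 43886, 42892 and 42945 in the young and 38815, 36277 and 36902 in the mature libraries. That count depends on the scaling of the libraries, taken up below, and was not repeated after rescaling. The 100 most abundant unigenes held 17.5, 20.3 and 17.9% of summed FPKM in young and 28.3, 31.7 and 27.6% in mature leaves. Groups did not overlap in either measure, and each two-sided exact permutation test gave p = 0.1, the smallest that 3 libraries against 3 allow.

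Across the 44579 unigenes, 18818 were called different between the ages (42.2%), 14264 higher in young (32.0%) and 4554 higher in mature leaves (10.2%). A call needed an adjusted p under 0.05 in limma's moderated test on log2(FPKM + 1), with Benjamini-Hochberg adjustment over 50970 tested unigenes, of which 38.7% were called, 29.5% higher in young and 9.19% in mature leaves. Log2 changes are young minus mature on that scale, which understates the change of low unigenes. Among the calls, 15043 changed by a log2 of at least 1, and 539 higher in young and 232 higher in mature leaves by at least 4. In 24420 unigenes (54.8%, against 50.9% of all tested) the 3 young and 3 mature values did not overlap.

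How lopsided this split was depended on the scaling. Rescaling the libraries by median ratios took the median log2 change of the 44579 unigenes from 0.42 to 0.06, and 75.8% of the calls were higher in young leaves as deposited against 56.4% after rescaling (9264 and 7156 unigenes, 20.8% and 16.1%). Without both libraries numbered 1 it was 75.3%. Unigenes that passed through 1 age alone had to differ: of the 3932 seen in young leaves only, 3616 were called higher there, and of the 961 seen in mature leaves only, 804. Among the 26297 at 1 FPKM or more in all 6 libraries, 29.5% were called higher in young and 11.0% in mature leaves, and after rescaling 15.6% and 19.3%, which are the background for counts over unigenes at that level in all 6. Gene lists below are therefore given with their counts as deposited and after rescaling, and most lists that leaned to young leaves also with counts over these 26297 unigenes. The counts are to be read against 32.0% and 10.2% of all 44579 as deposited and 20.8% and 16.1% after rescaling.

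**Figure D1:**
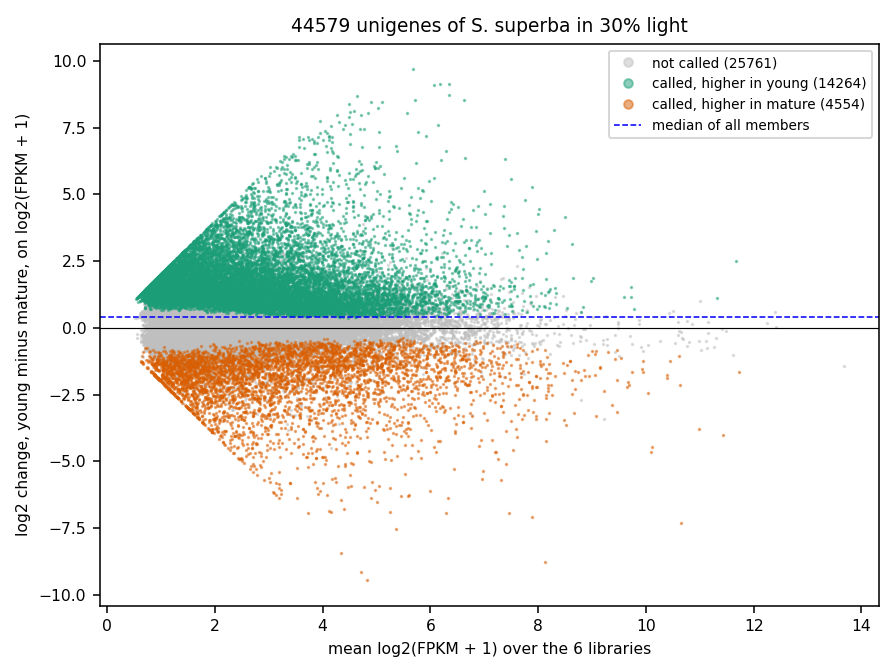
Log2 change between young and mature leaves (vertical) against the mean level over the 6 low light libraries (horizontal), both on log2(FPKM + 1), with 1 point per unigene. The dashed line marks the median change of 0.42. The 14264 unigenes called higher in young leaves outnumber the 4554 called higher in mature leaves, and among the most abundant unigenes, at the right, most called points lie below 0.

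Among unigenes with a usable description, those that differed most in favour of young leaves included wall proteins, acid phosphatases and acyl-transferring or lipid-cleaving enzymes. Proline-rich protein 4 (CL4111.Contig1), a structural protein of the cell wall, stood at 1457, 3377 and 1501 FPKM in the young and 3.18, 0.9 and 4.07 in the mature libraries (log2 change 9.15, SE 0.38, adjusted p = 5.99e-08). A second contig of its cluster, proline-rich protein 2 (CL4111.Contig2), gave 1044, 2574 and 1438 against 1.28, 1.09 and 3.93 (log2 change 9.1, adjusted p = 5.99e-08). In both contigs every young value exceeded 1000 FPKM and every mature value stayed below 5, but contigs whose names begin with CL belong to clusters of similar sequence and may share reads, so their single values are uncertain.

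An acid phosphatase 1-like unigene (Unigene2288) stood at 628, 424 and 650.4 FPKM in young and 0.35, 0.51 and 0.98 in mature leaves (log2 change 8.45, SE 0.23, adjusted p = 8.19e-09). CL1233.Contig2, of the same name, was at 452, 323 and 366 against 0.38, 0.14 and 0.67 (log2 change 8.1, adjusted p = 8.19e-09). The stem 28 kDa glycoprotein (Unigene2289), named after a vegetative storage protein of soybean in the acid phosphatase family, gave 410.0, 407 and 446 against 1.3, 1.84 and 1.64 (log2 change 7.35, adjusted p = 8.12e-08). For all 3 unigenes the mature libraries lay below 2 FPKM and the young ones above 300.

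Serine carboxypeptidase-like proteins, a family with acyltransferases of phenolic esters in other plants, were also high in young leaves. Serine carboxypeptidase-like protein 1 (Unigene5772) stood at 319.7, 371 and 532 FPKM in young and 0.53, 0.19 and 0.64 in mature leaves (log2 change 8.11, SE 0.31, adjusted p = 3.79e-08), and the 18-like member CL6268.Contig2 at 225, 309 and 411 against 0.26, 0.04 and 0.39 (log2 change 7.97, adjusted p = 1.54e-07). A putative anthranilate N-benzoyltransferase (Unigene4981), of another acyltransferase family, reached 169, 228 and 308 against 0.09, 0.04 and 0.04 (log2 change 7.76, adjusted p = 1.04e-05). Lack of overlap was a condition of the rule that picked these, met by 54.8% of all 44579 unigenes, so it is no result here. Proteins tied to wall or cell extension followed. A Pollen Ole e 1 allergen and extensin family protein (CL4138.Contig1) was at 702, 765 and 626 against 2.21, 1.57 and 8.54 (log2 change 7.34, adjusted p = 7.61e-07) and EXORDIUM-like 5 (CL3725.Contig1), related to a growth-promoting protein of Arabidopsis, at 254, 254 and 344 against 0.53, 0.94 and 1.12 (log2 change 7.25, adjusted p = 2.09e-07).

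**Figure D2:**
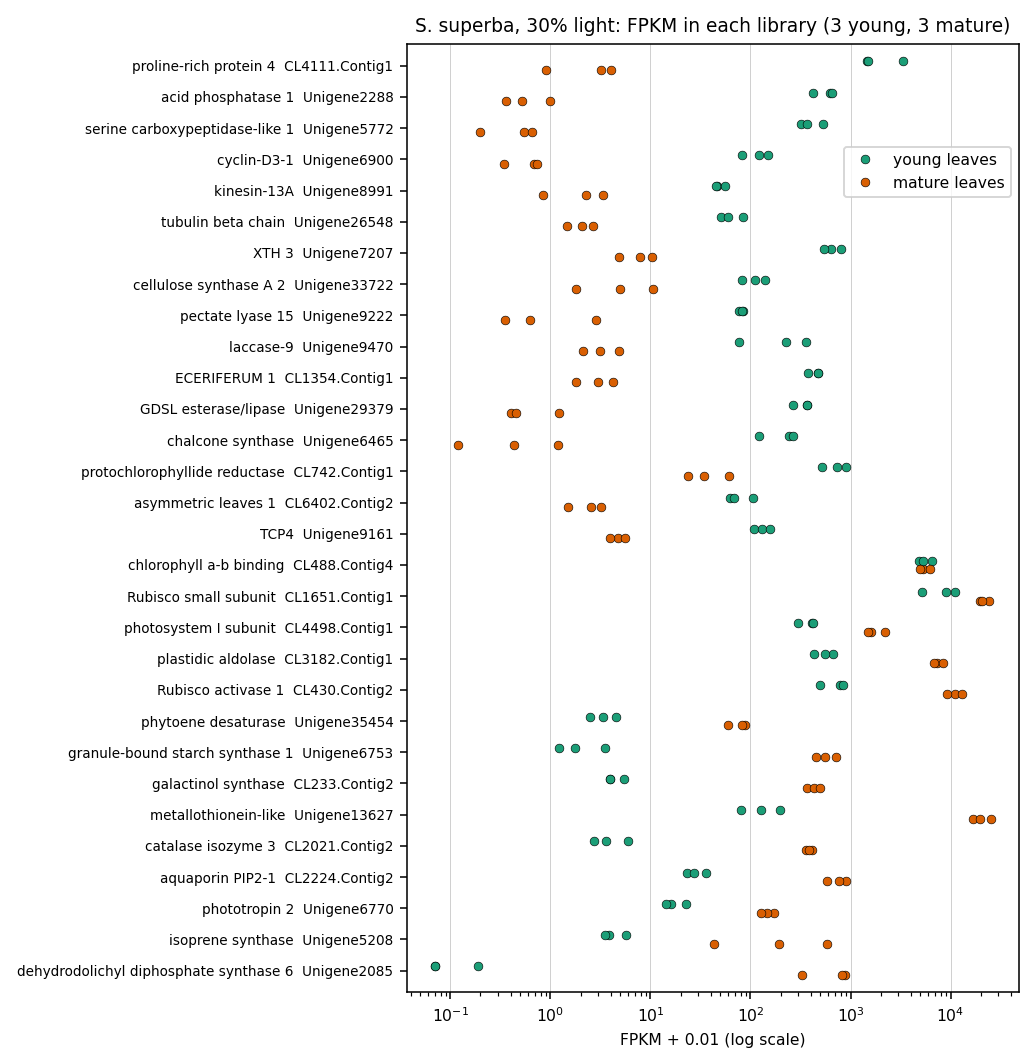
FPKM plus 0.01 (horizontal, log scale) of 30 unigenes in each low light library, 3 young and 3 mature. From the proline-rich protein down to TCP4 every young point lies to the right of every mature point, the chlorophyll a-b binding protein CL488.Contig4 overlaps between the ages, and the remaining rows have every mature point to the right.

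Cell division genes were higher in young leaves, with no exception among the calls as deposited. Of 190 such unigenes 144 passed the filter, of which 111 were called higher in young and 0 in mature leaves (98 and 1 after rescaling), and the median log2 change was 1.52 against 0.42 over all unigenes. Cyclin-D3-1 (Unigene6900), an activator of the division cycle, stood at 122, 83.1 and 148 FPKM in young and 0.68, 0.33 and 0.73 in mature leaves (log2 change 6.2, SE 0.27, adjusted p = 6.83e-08). Kinesin-13A (Unigene8991), a microtubule motor, gave 46.7, 55.1 and 45.3 against 3.34, 2.24 and 0.83 (log2 change 4.08, adjusted p = 1.66e-05) and kinesin-4 (CL3748.Contig2) 28.2, 22.4 and 30.1 against 0.98, 1.29 and 0.32 (log2 change 3.93, adjusted p = 2.1e-06). None of the 3 overlapped between the ages. The whole list, with unigenes that did not pass the filter, held 0.166, 0.147 and 0.174% of summed FPKM in young and 0.0484, 0.0392 and 0.0386% in mature leaves, and shares of other lists are taken in the same way. Only 28 of its unigenes were at 1 FPKM or more in all 6 libraries, and of those 17 were called higher in young and 0 in mature leaves (13 and 1 after rescaling).

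DNA replication followed as deposited. Of 70 such unigenes 58 passed the filter, of which 37 were called higher in young and 1 in mature leaves (25 and 1 after rescaling), with a median of 1.18, and these counts were 9 and 1 (3 and 1 after rescaling) among the 22 at 1 FPKM or more in all 6 libraries. The 9 and 1 were 40.9% and 4.55%, against 29.5% and 11.0% of all unigenes at that level. After rescaling, 15.6% and 19.3% of all at that level were called. The median log2 change of the 22 was then 0.09, against -0.09 over all at that level. The ribonucleoside-diphosphate reductase small chain (CL6244.Contig1), part of the enzyme that makes deoxyribonucleotides, was at 10.3, 6.8 and 20.6 FPKM in young leaves and listed at 0 in all 3 mature libraries (adjusted p = 0.000199). The 70 kDa subunit B of replication protein A (Unigene39143), which binds single-stranded DNA, stood at 10.3, 7.29 and 14.8 against 1.51, 0.76 and 0.4 (log2 change 2.63, adjusted p = 7.86e-05). Marker genes of meristems, 22 unigenes with none at 0 throughout, summed to 351, 398 and 385 FPKM in young leaves. In mature leaves the sums were 222, 164 and 191. Of the 20 that passed the filter 8 were called higher in young and 0 in mature leaves (7 and 2 after rescaling). Among the 13 at 1 FPKM or more in all 6 libraries these counts were 2 and 0 (1 and 2 after rescaling). The 2 calls as deposited were 15.4%, against 29.5% of all unigenes at that level. The part of meristem cells in these results was not tested, and in bulk leaves fewer cells of a type cannot be told apart from less RNA per cell. WUSCHEL-related homeobox 1 (Unigene3602), which acts in the leaf blade margin as well, stood at 19.8, 12 and 17.7 against 0.19, 0.51 and 0.13 (log2 change 3.76, adjusted p = 2.14e-06).

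Histones, the proteins that package DNA, were mostly higher in young leaves. Of 49 such unigenes 36 passed the filter, of which 20 were called higher in young and 1 in mature leaves (15 and 3 after rescaling), with a median of 0.98, and these counts were 13 and 1 (8 and 3 after rescaling) among the 26 at 1 FPKM or more in all 6 libraries. Histone H3.2 (Unigene88) was at 47.4, 27.9 and 56.9 FPKM in young against 4.96, 1.87 and 0.82 in mature leaves (log2 change 3.78, SE 0.38, adjusted p = 2.04e-05). The call in the other direction was a linker histone, H1C (Unigene7110), at 144, 99 and 96 against 465, 360.4 and 567 (log2 change -2.03, adjusted p = 0.000335), so that all mature values lay above all young ones. Cytosolic ribosomal proteins were higher in young leaves by a smaller margin. Of 181 such unigenes 139 passed the filter, of which 73 were called higher in young and 2 in mature leaves (31 and 4 after rescaling), and the median was 0.88, with counts of 71 and 2 (29 and 4 after rescaling) among the 125 at 1 FPKM or more in all 6 libraries. Without both libraries numbered 1 the counts were 42 and 2. The 60S protein L3 (Unigene30969) stood at 85.2, 61.6 and 74.4 against 22.8, 10.1 and 13.4 (log2 change 2.25, adjusted p = 0.000361), and the 40S protein S9-2 (CL993.Contig2) at 87.2, 81.4 and 93.7 against 24, 11.5 and 26.4 (log2 change 2.11, adjusted p = 0.000245). Ribosomal proteins of the organelle type had 15 calls for young and 6 for mature leaves among 71, and 7 and 19 after rescaling, where the direction of the majority turned.

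The cytoskeleton was among the most one-sided groups. Of 144 such unigenes 109 passed the filter, of which 82 were called higher in young and 1 in mature leaves (66 and 1 after rescaling), with a median of 1.44. A beta tubulin (Unigene26548), a building block of microtubules, was at 50.9, 59.9 and 84.5 FPKM in young and 2.07, 1.46 and 2.65 in mature leaves (log2 change 4.42, SE 0.39, adjusted p = 8.98e-06). The list held 0.538, 0.558 and 0.619% of summed FPKM in young and 0.155, 0.134 and 0.183% in mature leaves. In the 72 of its unigenes at 1 FPKM or more in all 6 libraries, 51 calls were for young and 0 for mature leaves (39 and 0 after rescaling).

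Genes that loosen, build and modify the cell wall were mostly higher in young leaves. Exceptions included abundant unigenes. Expansins and xyloglucan endotransglucosylase/hydrolases (XTH) let the wall extend. Of 39 such unigenes 31 passed the filter, of which 24 were called higher in young and 2 in mature leaves (21 and 2 after rescaling), with a median of 2.91, and these counts were 5 and 2 (4 and 2 after rescaling) among the 9 at 1 FPKM or more in all 6 libraries. XTH3 (Unigene7207) stood at 644, 537 and 800.3 FPKM in young and 7.77, 4.82 and 10.4 in mature leaves (log2 change 6.29, SE 0.56, adjusted p = 9.3e-06). An expansin (CL2042.Contig2) was at 107, 202 and 115 against 3.09, 0.85 and 0.5 (log2 change 5.92, adjusted p = 4.75e-05). Neither overlapped between the ages. The pair higher in mature leaves consisted of XTH unigenes as well, Unigene8728 at 72.8, 2.84 and 7.09 in young and 297, 249 and 194 in mature leaves (log2 change -4.21, adjusted p = 0.00513) and Unigene7035 at 85.3, 122 and 78.1 against 621, 381 and 299 (log2 change -2.13, adjusted p = 0.000251). Young replicate 1 was the highest young library in the former by far.

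For cellulose and callose synthesis and turnover, 63 of 73 unigenes passed, of which 39 were called higher in young and 11 in mature leaves (35 and 11 after rescaling), and the median was 1.49, with counts of 19 and 8 (16 and 8 after rescaling) among the 34 at 1 FPKM or more in all 6 libraries. Subunit 2 of cellulose synthase A (Unigene33722), of primary walls in Arabidopsis, gave 82.9, 112 and 139 FPKM in young against 10.5, 5.01 and 1.8 in mature leaves (log2 change 4.25, SE 0.41, adjusted p = 1.65e-05). Endoglucanase 19 (CL5714.Contig2), which cuts wall glucans, gave 23, 49.8 and 40.8 against 1.73, 0.43 and 0.29 (log2 change 4.43, adjusted p = 2.74e-05). The opposite pattern was marked in the cellulose synthase-like protein B4 (CL597.Contig1), at 3.39, 0.12 and 0.62 in young and 252, 228 and 187 in mature leaves (log2 change -6.79, adjusted p = 1.47e-06). Values of the ages did not overlap in Unigene33722 and CL5714.Contig2, while for CL597.Contig1 lack of overlap was a condition of naming.

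Pectin enzymes rose in young leaves in nearly every call. Of 75 such unigenes 62 passed the filter, of which 45 were called higher in young and 2 in mature leaves (40 and 2 after rescaling), with a median of 1.74, and these counts were 21 and 0 (17 and 0 after rescaling) among the 27 at 1 FPKM or more in all 6 libraries. Pectate lyase 15 (Unigene9222), which cleaves pectin, was at 75.9, 83.8 and 81.8 FPKM in young against 2.86, 0.61 and 0.34 in mature leaves (log2 change 5.33, SE 0.33, adjusted p = 8.03e-07). A pectin methylesterase inhibitor family protein (CL4528.Contig1) was at 106, 98.6 and 138 against 3.4, 3.19 and 3.39 (log2 change 4.72, adjusted p = 2.65e-07). In both, the 3 young values stood well clear of the mature ones.

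Of 85 lignin and laccase unigenes, 69 passed, of which 32 were called higher in young and 2 in mature leaves (26 and 7 after rescaling), and the median was 1.09, with counts of 16 and 1 (10 and 5 after rescaling) among the 41 at 1 FPKM or more in all 6 libraries. A laccase-9 (Unigene9470), of an oxidase family that polymerises lignin, stood at 77.3, 225 and 355 FPKM in young and 2.11, 3.13 and 4.84 in mature leaves (log2 change 5.45, SE 0.58, adjusted p = 3.11e-05). Cinnamoyl-CoA reductase (Unigene13533), at the entry to lignin building blocks, stood at 60, 44.7 and 53.7 against 0.05, 0.05 and 0.15 (log2 change 5.62, adjusted p = 2.07e-05). The laccase varied widely among young libraries, the reductase little, and neither overlapped with mature leaves. Vascular and secondary wall markers were higher in young leaves too as deposited, with summed FPKM of 503, 465 and 475 against 250, 344 and 287 over 24 unigenes, none at 0 throughout. All 24 passed the filter, of which 15 were called higher in young and 1 in mature leaves (9 and 2 after rescaling). Without both libraries numbered 1 the counts were 11 and 2. COBRA-like protein 4 (CL3213.Contig3), tied to secondary walls, gave 75.2, 82.7 and 80.4 against 14.5, 9.31 and 7.99 (log2 change 2.83, adjusted p = 0.000159). How far the amount of vascular tissue moved the wall and lignin lists was not tested.

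The leaf surface genes were high in young leaves. Of 47 cuticle and wax unigenes 33 passed, of which 23 were called higher in young and 3 in mature leaves (21 and 5 after rescaling), with a median of 2.08, and these counts were 13 and 1 (12 and 3 after rescaling) among the 20 at 1 FPKM or more in all 6 libraries. ECERIFERUM 1 (CL1354.Contig1), which makes the alkanes of wax in Arabidopsis, was at 374, 478 and 473 FPKM in young and 3.01, 1.78 and 4.23 in mature leaves (log2 change 6.83, SE 0.27, adjusted p = 4.1e-08). Cytochrome P450 86B1 (CL1686.Contig2), a hydroxylase of very long fatty acids, was at 151, 199 and 189.6 against 0.06, 0.17 and 0.63 (log2 change 7.15, adjusted p = 8.19e-09), and HOTHEAD (Unigene38911), an oxidoreductase of cutin synthesis, at 82.4, 147 and 166 against 1.13, 0.43 and 0.69 (log2 change 6.2, adjusted p = 1.62e-07). All 3 were at least an order of magnitude apart in every pairing of young with mature libraries. Omega-hydroxypalmitate O-feruloyl transferase (CL6686.Contig2), which adds the aromatic part of suberin in Arabidopsis, was the other way round, at 2.63, 0.39 and 0.44 in young and 111, 107 and 102 in mature leaves (log2 change -5.8, adjusted p = 1.36e-05). WIN1 (CL1372.Contig3), a transcription factor that activates wax and cutin genes in Arabidopsis, was at 15.4, 23.2 and 20 in young and 0.17, 0 and 0.22 in mature leaves (adjusted p = 7.92e-07).

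GDSL esterases and lipases, a family that includes the enzyme that polymerises cutin, had no call for mature leaves as deposited. Of 32 such unigenes 28 passed the filter, of which 20 were called higher in young and 0 in mature leaves (18 and 1 after rescaling), with a median of 2.0, and these counts were 7 and 0 (6 and 1 after rescaling) among the 12 at 1 FPKM or more in all 6 libraries. Unigene29379 stood at 263, 369.9 and 369 FPKM in young against 0.39, 0.44 and 1.21 in mature leaves (log2 change 7.66, SE 0.42, adjusted p = 3.23e-07). Unigene11184 was at 476, 283 and 289 against 0.37, 0.42 and 2.89 (log2 change 7.44, adjusted p = 6.84e-07) and CL3358.Contig1 at 218, 257 and 148 against 0.29, 0.43 and 1.26 (log2 change 6.98, adjusted p = 3.23e-08). Lack of overlap, met by 54.8% of all 44579 unigenes, was a condition for naming Unigene29379 and Unigene11184, so it is no result for them. The list held 0.248, 0.286 and 0.256% of summed FPKM in young and 0.0357, 0.0384 and 0.0193% in mature leaves. Lipid transfer proteins were few, with 7 higher in young and 1 in mature leaves among 14 (6 and 1 after rescaling). Their list held 0.549, 0.686 and 0.658% of summed FPKM in young and 0.983, 0.656 and 0.539% in mature leaves, and those ranges overlap. The member Unigene36720 reached 1106, 985 and 1269 in young against 61.5, 111 and 26.8 in mature leaves (log2 change 4.27, adjusted p = 8.47e-05). Markers of epidermis, trichomes and guard cells summed to 490, 377 and 437 FPKM in young and 263, 225 and 265 in mature leaves. None of these 13 unigenes was at 0 throughout. Of the 11 that passed the filter 6 were called higher in young and 0 in mature leaves (4 and 2 after rescaling). ASPARTIC PROTEASE IN GUARD CELL 2 (Unigene27757) gave 58.6, 58.8 and 50.5 against 1.8, 3.12 and 1.55 (log2 change 4.2, adjusted p = 5.62e-06). The part of epidermal, trichome and guard cells in the surface lists was not tested.

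Flavonoid genes had calls for both ages. Of 79 such unigenes 65 passed the filter, of which 21 were called higher in young and 10 in mature leaves (14 and 12 after rescaling), with a median of 0.71. As deposited these were 32.3% and 15.4%, against 32.0% and 10.2% of all unigenes, so the share for young leaves was near that of all. After rescaling, 20.8% and 16.1% of all unigenes were called. Without both libraries numbered 1 the counts were 14 and 10. The entry enzyme, chalcone synthase, was high in young leaves, with Unigene23365 at 256, 110.4 and 219 FPKM against 0.28, 0.14 and 0.83 (log2 change 7.06, SE 1.27, adjusted p = 0.00119) and Unigene6465 at 242, 121 and 264 against 0.11, 0.42 and 1.17 (log2 change 7.04, adjusted p = 0.00083). The unigene named anthocyanin 2 (CL4299.Contig1) gave 79.5, 56.8 and 109 against 1.03, 0.52 and 0 (log2 change 5.78, adjusted p = 1.43e-05). Young replicate 2 was the lowest young library in all 3, yet far above the mature ones. The branch to proanthocyanidins, the condensed tannins, held calls for mature leaves. Leucoanthocyanidin reductase 2 (Unigene9144) stood at 11.3, 32.6 and 33.6 in young and 59.3, 193 and 133 in mature leaves (log2 change -2.26, adjusted p = 0.00483) and an anthocyanidin reductase (Unigene37202) at 8.67, 3.36 and 2.03 against 22.2, 16.5 and 33.2 (log2 change -2.25, adjusted p = 0.00134).

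**Figure D3:**
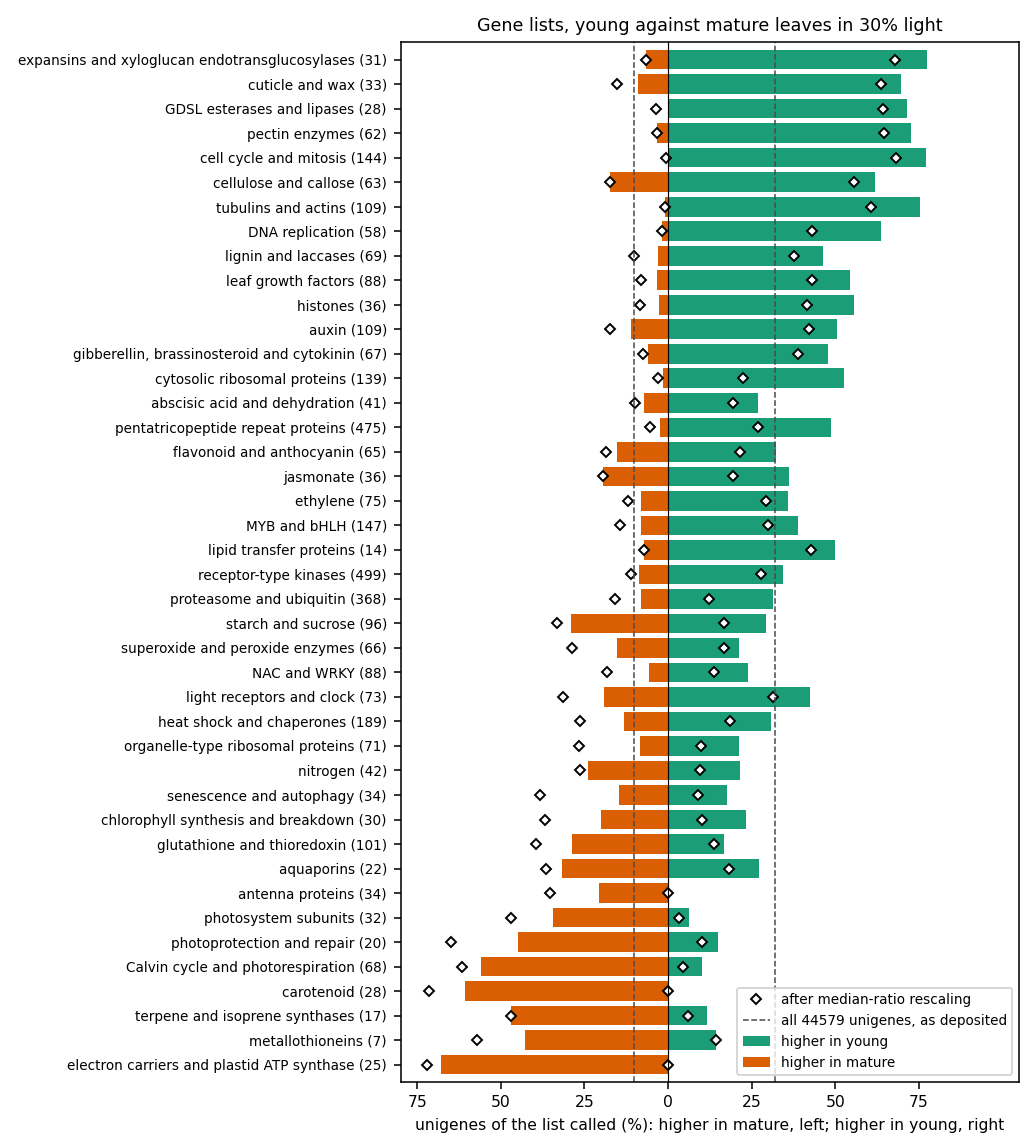
Share of each gene list's unigenes (number in brackets) called higher in young leaves (right) or in mature leaves (left), in percent, sorted by median log2 change. Diamonds show the shares after median-ratio rescaling and dashed lines the 32.0% and 10.2% of all 44579 unigenes. Wall, surface, division and cytoskeleton lists extend furthest to the right, and electron carrier, carotenoid, Calvin cycle, terpene synthase, photoprotection and metallothionein lists furthest to the left.

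Photosynthesis genes leaned to mature leaves to different degrees. Antenna proteins, which hold the light-harvesting chlorophyll, were abundant at both ages, whereas most electron carriers and Calvin cycle genes were lower in young leaves. Of 50 antenna unigenes 34 passed the filter, of which 0 were called higher in young and 7 in mature leaves (0 and 12 after rescaling), with a median of -0.35 against 0.42 over all unigenes. The list held 4.38, 4.91 and 3.64% of summed FPKM in young and 5.18, 5.75 and 4.17% in mature leaves, and those ranges overlap. Chlorophyll a-b binding protein CL488.Contig4 stood at 4829.6, 6557 and 5261 FPKM in young and 5308, 6215 and 4902 in mature leaves (log2 change 0.01, adjusted p = 0.983). CL488.Contig3, an LHCII type 1 protein, stood at 6461, 8707 and 5291 against 5491, 4064 and 3793 (log2 change 0.6, adjusted p = 0.31). The young and mature values of both overlapped.

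Other antenna proteins did differ. Chlorophyll a-b binding protein 8 (CL4449.Contig1) was at 2003, 1882 and 1819 FPKM in young and 6137, 6903 and 5094 in mature leaves (log2 change -1.66, SE 0.35, adjusted p = 0.00317) and chlorophyll a-b binding protein P4 (Unigene19473), at lower levels, gave 42.6, 33 and 22.3 against 144, 181 and 115 (log2 change -2.15, adjusted p = 0.000145). In both, all mature libraries were above all young ones.

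Photosystem subunits, the proteins around the reaction centres, were called mostly for mature leaves. Of 44 such unigenes 32 passed the filter, of which 2 were called higher in young and 11 in mature leaves (1 and 15 after rescaling), with a median of -0.7. A photosystem I reaction centre subunit (CL4498.Contig1) was at 415, 424 and 297 FPKM in young and 1607, 2193 and 1484 in mature leaves (log2 change -2.21, SE 0.3, adjusted p = 0.000186) and PsbR of photosystem II (CL4728.Contig2) at 139, 352 and 357 against 1025, 1003 and 2397 (log2 change -2.37, adjusted p = 0.00149). The chloroplast-encoded CP43 (Unigene32903), the inner antenna of photosystem II, was at 34.6, 49 and 49.1 against 279, 1168 and 827 (log2 change -3.85, adjusted p = 0.000233). None overlapped between the ages. Subunit IV of photosystem I (CL6277.Contig2) went the other way, at 10.2, 339.9 and 267 in young and 0, 1.1 and 0 in mature leaves (log2 change 6.3, adjusted p = 0.00935), but the sum over its cluster gave a log2 change of -0.36 (adjusted p = 0.371), so that the call did not hold for the cluster as a whole. Organelle-encoded and ribosomal RNA transcripts summed to 726, 617 and 593 FPKM in young and 1707, 3211 and 2004 in mature leaves over 66 unigenes, and their part in the counts for chloroplast-encoded subunits was not tested.

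Electron carriers and the plastid ATP synthase, which turn light energy into reductant and ATP, had no call for young leaves. Of 31 such unigenes 25 passed the filter, of which 0 were called higher in young and 17 in mature leaves (0 and 18 after rescaling), with a median of -1.89. The list held 0.363, 0.389 and 0.282% of summed FPKM in young and 0.85, 0.959 and 0.674% in mature leaves, without overlap. Subunit M of the plastid NAD(P)H-quinone oxidoreductase (CL5118.Contig1), part of cyclic electron flow, was at 9.47, 10.6 and 7.53 FPKM in young and 47.2, 86.5 and 48.9 in mature leaves (log2 change -2.56, SE 0.26, adjusted p = 2.68e-05).

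The Calvin cycle, which fixes carbon dioxide, and photorespiration were far apart in summed level, at 2.39, 2.02 and 1.3% of summed FPKM in young and 6.61, 8.14 and 6.37% in mature leaves. Of 87 such unigenes 68 passed the filter, of which 7 were called higher in young and 38 in mature leaves (3 and 42 after rescaling), with a median of -1.06. Rubisco activase, which keeps the carbon-fixing enzyme Rubisco active, was low in young leaves. Activase CL430.Contig2 stood at 792, 839 and 490.3 FPKM in young and 11140.0, 13100.0 and 9266 in mature leaves (log2 change -4.0, SE 0.39, adjusted p = 1.8e-05). Unigene11021, an activase 1, was at 6.27, 6.51 and 5.63 against 730.3, 959 and 939 (log2 change -6.93, adjusted p = 8.19e-09). CL430.Contig4, a further activase, was at 19.1, 13.7 and 12.8 against 1615, 2321 and 2009.6 (log2 change -6.94, adjusted p = 2.65e-08), where the sum over its cluster gave a log2 change of -4.28 (adjusted p = 7.94e-06). In CL430.Contig2 every mature library lay above every young one. For Unigene11021 and CL430.Contig4 lack of overlap was a condition of naming.

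The unigene with the highest mean FPKM in mature leaves, a Rubisco small subunit (CL1651.Contig1), did not pass the test. Its values were 10999.5, 8921 and 5122 FPKM in young and 19755, 24079.7 and 20605 in mature leaves (log2 change -1.43, SE 0.6, adjusted p = 0.0799), without overlap but with a wide spread among the young libraries. A second small subunit contig (CL6064.Contig1) was called, at 179, 317 and 183 against 3068, 7400.0 and 7121 (log2 change -4.64, adjusted p = 3.45e-05), and its cluster sum gave a log2 change of -2.13 (adjusted p = 0.00282). Plastidic aldolase (CL3182.Contig1), of the Calvin cycle, was at 674, 552 and 430.0 against 7393, 8424 and 6851 (log2 change -3.79, adjusted p = 1.21e-05). The cytosolic aldolase CL2333.Contig4, taken in by the word pattern though it serves glycolysis, was at 357, 297 and 331 in young and 99.5, 74 and 111 in mature leaves (log2 change 1.8, adjusted p = 0.000223). The plastid and cytosolic enzymes thus changed in opposite directions, each without overlap.

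Chlorophyll genes were split. Of 35 such unigenes 30 passed the filter, of which 7 were called higher in young and 6 in mature leaves (3 and 11 after rescaling), with a median of -0.09. Protochlorophyllide reductase, the light-requiring step of chlorophyll synthesis, was high in young leaves. Its contig CL742.Contig1 stood at 513, 908 and 726 FPKM in young and 23.6, 34.7 and 60.6 in mature leaves (log2 change 4.21, SE 0.45, adjusted p = 3.28e-05), with a log2 change of 2.31 (adjusted p = 1.38e-05) for the cluster sum. The B form (Unigene33078) was at 39.8, 52.4 and 34.8 against 0.95, 0.93 and 2.83 (log2 change 4.13, adjusted p = 2.96e-06), and neither overlapped. The protochlorophyllide-dependent translocon component 52 (Unigene28259), a chloroplast protein, was at 49, 34.2 and 23.5 in young and 317, 405 and 253 in mature leaves (log2 change -3.19, adjusted p = 7.11e-06).

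Carotenoid genes, which make and cleave the yellow pigments that guard the photosystems, had no call for young leaves. Of 28 such unigenes 28 passed the filter, of which 0 were called higher in young and 17 in mature leaves (0 and 20 after rescaling), with a median of -1.4. Phytoene desaturase (Unigene35454), an early step of synthesis, was at 3.33, 4.51 and 2.45 FPKM in young and 59.5, 87.7 and 82.3 in mature leaves (log2 change -4.14, SE 0.28, adjusted p = 1.44e-06). Carotenoid cleavage dioxygenase 4 (Unigene36619) gave 28.4, 23.9 and 15.6 against 319, 415 and 278 (log2 change -3.86, adjusted p = 1.38e-05) and the beta-carotene isomerase D27 (Unigene1546), on the path to strigolactones, 22.1, 18.5 and 10.9 against 217, 262 and 182 (log2 change -3.64, adjusted p = 1.97e-06). The list held 0.0627, 0.0554 and 0.0441% of summed FPKM in young and 0.221, 0.229 and 0.186% in mature leaves. Photoprotection and repair had 3 calls for young and 9 for mature leaves among 20 (2 and 13 after rescaling). Zeaxanthin epoxidase (CL7596.Contig2), of the xanthophyll cycle, was at 8.99, 7.67 and 6.65 against 40, 40 and 43.4 (log2 change -2.27, adjusted p = 1.26e-05), while the chloroplast protease FTSH 12 (CL1001.Contig1) was higher in young leaves, at 19.9, 17 and 16.4 against 4.03, 1.79 and 4.15 (log2 change 2.17, adjusted p = 5.14e-05).

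**Figure D4:**
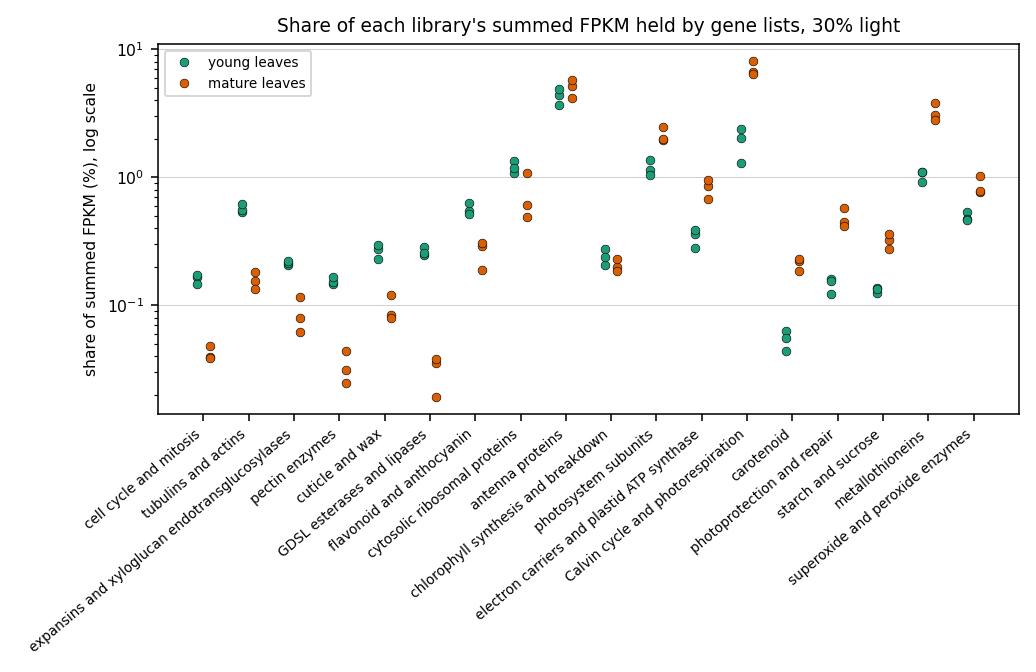
Share of each low light library's summed FPKM (vertical, percent, log scale) held by 18 gene lists, with 3 young and 3 mature points per list. Antenna and chlorophyll lists overlap between the ages and cytosolic ribosomal protein values nearly meet, while division, wall and GDSL lists are higher in young leaves and electron carrier, Calvin cycle, carotenoid and metallothionein lists higher in mature leaves.

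Starch and sugar genes had equal numbers of calls for either age, 29.2% each, against 32.0% and 10.2% of all unigenes. Of 116 such unigenes 96 passed the filter, of which 28 were called higher in young and 28 in mature leaves (16 and 32 after rescaling). The list held 0.125, 0.136 and 0.135% of summed FPKM in young and 0.278, 0.324 and 0.359% in mature leaves, without overlap. Granule-bound starch synthase 1 (Unigene6753), which makes amylose, stood at 3.47, 1.76 and 1.21 FPKM in young and 456, 557 and 708 in mature leaves (log2 change -7.55, SE 0.51, adjusted p = 1.27e-06). Galactinol synthase (CL233.Contig2), which starts the raffinose sugars, stood at 5.49, 3.92 and 3.96 against 369.8, 429.8 and 493 (log2 change -6.31, adjusted p = 8.19e-09). Higher in young leaves were the plastid alpha-amylase 3 (Unigene34612), a starch-degrading enzyme, at 27, 31.3 and 23.7 against 2.59, 2.61 and 4.19 (log2 change 2.79, adjusted p = 8.87e-06), and a sugar transporter of the ERD6-like family (Unigene29738), at 56.8, 97.3 and 99.3 against 4.27, 18.9 and 5.49 (log2 change 3.24, adjusted p = 0.000426). The ages did not overlap in Unigene34612 and Unigene29738, while for Unigene6753 and CL233.Contig2 lack of overlap was a condition of naming.

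Terpene and isoprene synthases had more calls for mature than for young leaves. Of 23 terpene and isoprene synthase unigenes 17 passed, of which 2 were called higher in young and 8 in mature leaves (1 and 8 after rescaling). Isoprene synthase (Unigene5208), source of a volatile released by many tree leaves, was at 3.87, 5.74 and 3.48 FPKM in young and 43.2, 192 and 579.9 in mature leaves (log2 change -5.01, SE 0.72, adjusted p = 0.000272). Mature libraries differed among themselves by over 10 times, yet all exceeded the young ones. The largest difference towards mature leaves among described unigenes was that of dehydrodolichyl diphosphate synthase 6 (Unigene2085), of the family that makes long-chain polyprenols, at 0.06, 0.18 and 0.06 against 327, 881 and 829 (log2 change -9.14, SE 0.37, adjusted p = 5.72e-08).

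Metal-binding proteins were among the most abundant unigenes that differed between the ages. A metallothionein-like unigene (Unigene13627), of a family of small proteins that bind metal ions, was at 198, 128 and 80.4 FPKM in young and 16759.8, 19699.8 and 25553 in mature leaves (log2 change -7.31, SE 0.42, adjusted p = 4.75e-07). The class II type 2 member (Unigene26790) was at 276, 246 and 191 against 3386, 1553 and 1775 (log2 change -3.16, adjusted p = 0.000116). Another metallothionein, Unigene37255, was the reverse, at 6927, 8206 and 8402 in young and 2261, 1186 and 955 in mature leaves (log2 change 2.51, adjusted p = 0.00305). Unigene26790 and Unigene37255 were separated between the ages, while for Unigene13627 lack of overlap was a condition of naming. Together the 8 unigenes of the table, of which 7 passed the filter, held 0.916, 1.09 and 1.09% of summed FPKM in young and 3.06, 2.78 and 3.81% in mature leaves.

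For superoxide and peroxide enzymes, 66 of 88 unigenes passed, of which 14 were called higher in young and 10 in mature leaves (11 and 19 after rescaling). Catalase isozyme 3 (CL2021.Contig2), which breaks down the hydrogen peroxide of photorespiration among other sources, was at 5.99, 2.73 and 3.62 FPKM in young and 361, 408 and 388 in mature leaves (log2 change -6.29, SE 0.35, adjusted p = 3.64e-07). Peroxidase 72 (Unigene27260), of the secreted class that acts in the wall, was at 86.6, 153 and 137 against 9.17, 1.57 and 2.65 (log2 change 4.75, adjusted p = 9.57e-06). The peroxidase did not overlap between the ages, while for the catalase lack of overlap was a condition of naming. These 2 unigenes lie on opposite sides. Glutathione and thioredoxin proteins, which keep the redox balance, had 17 calls for young and 29 for mature leaves among 101 (14 and 40 after rescaling). Monothiol glutaredoxin-S11 (CL3975.Contig2) was listed at 0 in all 3 young libraries and at 54.8, 56.9 and 141 in mature leaves (adjusted p = 9.9e-07), and a thioredoxin-dependent peroxidase (Unigene34625) was at 88.2, 82.8 and 122 in young against 3.43, 1.46 and 0.65 in mature leaves (log2 change 5.21, adjusted p = 8.86e-06).

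Each of the 5 hormone lists had more calls for young than for mature leaves as deposited, as did all 44579 unigenes (32.0% and 10.2%). Auxin is the main growth hormone of shoots. Of 128 such unigenes 109 passed the filter, of which 55 were called higher in young and 12 in mature leaves (46 and 19 after rescaling), and these counts were 27 and 9 (24 and 15 after rescaling) among the 64 at 1 FPKM or more in all 6 libraries. Auxin-binding protein ABP20 (Unigene38352), a germin-like protein, was at 1328, 1798 and 1354 FPKM in young and 10.3, 20.7 and 25.4 in mature leaves (log2 change 6.31, SE 0.29, adjusted p = 1.2e-07). The auxin-induced protein 15A-like Unigene30247, of the small auxin-up RNA family, was at 29.9, 35.1 and 47.3 against 0.18, 0.2 and 0 (log2 change 5.07, adjusted p = 2.62e-06). ARG7 (Unigene9097), named after an auxin-induced gene of mung bean, was the reverse, at 8.92, 6.87 and 5.23 against 273, 134 and 292 (log2 change -4.82, adjusted p = 6.31e-07). All 3 were fully separated.

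In the list of gibberellin, brassinosteroid and cytokinin genes, 67 unigenes passed, of which 32 were called higher in young and 4 in mature leaves (26 and 5 after rescaling), and these counts were 12 and 3 (7 and 4 after rescaling) among the 32 at 1 FPKM or more in all 6 libraries. Several called members were small cysteine-rich peptides of the gibberellin-regulated family. Snakin-1 (Unigene2363), an antimicrobial peptide of that family in potato, was at 1212, 531 and 726 FPKM in young against 13.8, 1.5 and 12.4 in mature leaves (log2 change 6.62, SE 0.71, adjusted p = 3.58e-05). Gibberellin-regulated protein 11 (Unigene6836) was at 250.1, 144 and 240.3 against 0.96, 3.29 and 3.84 (log2 change 5.91, adjusted p = 1.58e-06) and GAST1 (Unigene18326), first described in tomato, at 429, 201 and 308 against 0.22, 0.66 and 0.78 (log2 change 7.61, adjusted p = 2.7e-08). Gibberellin-regulated protein 1 (Unigene1376) was high in mature leaves instead, at 2.85, 1.29 and 1.54 against 180.3, 169 and 175 (log2 change -5.96, adjusted p = 9.96e-07), so members of 1 family lay on both sides. The peptide hormone precursor phytosulfokines 3 (Unigene35339) was at 1.18, 0.73 and 0.88 in young and 191, 121 and 136 in mature leaves (log2 change -6.26, adjusted p = 1.39e-06).

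Calls for young and mature leaves were 13 and 7 of 36 for jasmonate (7 and 7 after rescaling), 27 and 6 of 75 for ethylene (22 and 9 after rescaling), and 11 and 3 of 41 for abscisic acid and dehydration (8 and 4 after rescaling). Counts at 1 FPKM or more in all 6 libraries were 8 and 6 of 23 for jasmonate (5 and 6 after rescaling). For ethylene they were 6 and 3 of 39 (2 and 6), and for abscisic acid 6 and 2 of 21 (3 and 3). At that level no majority for young leaves was left in any of them after rescaling. A 23 kDa jasmonate-induced protein (CL3855.Contig3) was at 621, 624 and 556 FPKM in young and 33, 50.7 and 52.1 in mature leaves (log2 change 3.73, adjusted p = 0.00079). Its cluster sum gave a log2 change of 2.41 (adjusted p = 0.00323). Jasmonate O-methyltransferase (Unigene6842), which makes methyl jasmonate, was at 2.8, 7.58 and 10.1 against 33.5, 49.6 and 25.8 (log2 change -2.34, adjusted p = 0.00101). The former was higher in all young and the latter in all mature libraries.

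Regulators of leaf growth leaned to young leaves. Of 109 such unigenes 88 passed the filter, of which 48 were called higher in young and 3 in mature leaves (38 and 7 after rescaling), with a median of 1.02, and these counts were 22 and 3 (14 and 7 after rescaling) among the 49 at 1 FPKM or more in all 6 libraries. Asymmetric leaves 1 (CL6402.Contig2), a factor that represses meristem genes in leaf primordia, was at 62.7, 68.2 and 107 FPKM in young and 1.48, 3.19 and 2.56 in mature leaves (log2 change 4.55, SE 0.3, adjusted p = 1.08e-06). TCP4 (Unigene9161), which in Arabidopsis ends cell division as a leaf matures, was at 108, 129 and 157 against 4.77, 3.9 and 5.51 (log2 change 4.52, adjusted p = 9.2e-08). The homeobox protein ATHB-52 (Unigene39857) was higher in mature leaves, at 9.59, 5.25 and 9.56 against 112, 43.6 and 122 (log2 change -3.26, adjusted p = 0.00118). Each separated the ages completely. MYB and bHLH factors had 57 and 12 calls among 147 (44 and 21 after rescaling). Among the 85 of them at 1 FPKM or more in all 6 libraries the counts were 28 and 9 (16 and 17 after rescaling). As deposited these were 32.9% and 10.6%, near the 29.5% and 11.0% of all unigenes at that level. NAC and WRKY factors had 21 and 5 among 88 as deposited and 12 and 16 after rescaling, so their majority followed the scaling.

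Light receptors and the clock had calls on both sides. Of 79 such unigenes 73 passed the filter, of which 31 were called higher in young and 14 in mature leaves (23 and 23 after rescaling). The blue light receptors cryptochrome 1 and phototropin 2 were higher in mature leaves. Cryptochrome 1 (CL852.Contig3) was at 12.7, 10.6 and 9.25 FPKM in young and 131, 98.9 and 113 in mature leaves (log2 change -3.28, SE 0.23, adjusted p = 1.56e-06), and phototropin 2 (Unigene6770) at 22.8, 16 and 14.4 against 173, 145 and 127 (log2 change -3.01, adjusted p = 1.92e-05). Partners in the repression of light responses moved with them, the ubiquitin ligase COP1 (CL5496.Contig1) at 3.82, 2.62 and 1.86 against 35.8, 44.2 and 33.6 (log2 change -3.39, adjusted p = 3.49e-06) and SPA1-related 3 (Unigene39977) at 3.11, 1.37 and 1.28 against 27.5, 35.6 and 20.5 (log2 change -3.33, adjusted p = 9.3e-06). None of these 4 overlapped between the ages. Higher in young leaves were CONSTANS-LIKE 6 (Unigene1611), a zinc finger factor, at 56.2, 80.6 and 95.9 against 1.13, 0.25 and 1.88 (log2 change 5.28, adjusted p = 5.37e-07) and adagio 3 (Unigene38905), a light-sensing clock protein, at 71.5, 68.6 and 62 against 0.92, 1.4 and 3.44 (log2 change 4.64, adjusted p = 5e-07).

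Water channels were divided between the ages. Of 30 such unigenes 22 passed the filter, of which 6 were called higher in young and 7 in mature leaves (4 and 8 after rescaling). The vacuolar TIP1-1 (Unigene22074) was at 246, 223 and 271 FPKM in young and 12.7, 16.2 and 14 in mature leaves (log2 change 4.02, SE 0.23, adjusted p = 4.5e-07), while the plasma membrane channel PIP2-1 (CL2224.Contig2) was at 36, 23 and 27.2 against 910.2, 579 and 770.0 (log2 change -4.66, adjusted p = 1.1e-05). Both were fully separated, in opposite directions.

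Pentatricopeptide repeat proteins, which process organelle RNA, had 232 calls for young and 12 for mature leaves among 475 (128 and 26 after rescaling, 131 and 13 without both libraries numbered 1), and 71 and 9 (35 and 21 after rescaling) among the 198 at 1 FPKM or more in all 6 libraries. Called members included Unigene5457 at 13.3, 14.5 and 13.1 FPKM in young against 2.54, 2.03 and 0.92 in mature leaves (log2 change 2.42, adjusted p = 2.96e-05) and Unigene9069 at 13.1, 9.03 and 8.92 against 65, 67.5 and 43.1 (log2 change -2.38, adjusted p = 0.000173). Receptor-type kinases had 171 and 43 calls among 499 (139 and 56 after rescaling). Among the 187 of them at 1 FPKM or more in all 6 libraries the counts were 48 and 9 (29 and 20 after rescaling). As deposited these were 25.7% and 4.81%, against 29.5% and 11.0% of all unigenes at that level. An inactive receptor kinase (Unigene9237) was at 168, 224 and 219.6 against 6.82, 4.11 and 1.37 (log2 change 5.48, adjusted p = 3.95e-06). A leucine-rich repeat kinase (CL3687.Contig2) was at 9.56, 0.74 and 0.43 against 137, 46.9 and 55.4 (log2 change -4.6, adjusted p = 0.000947). Proteasome and ubiquitin unigenes had 115 and 30 among 368 as deposited and 45 and 58 after rescaling. Nitrogen genes had 9 and 10 among 42 (4 and 11 after rescaling), and senescence and autophagy genes 6 and 5 among 34 (3 and 13 after rescaling), so that the majority of the latter turned with the scaling.

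Age differences under shade were set beside those of leaves in 100% sunlight, which come from 6 other libraries. Of the 18818 unigenes called in low light, 14431 (76.7%) were called with the same direction in full light, and 128 with the opposite one, while these 14431 were 67.1% of the unigenes called in full light. There 37.8% were called higher in young and 10.5% in mature leaves (36.3% and 9.67% of all tested). The log2 changes of the 2 light levels had a Pearson r of 0.796 over the 44579 unigenes, given with no p because unigenes are not replicates. The difference between them was tested directly, and 774 unigenes were called (1.74%), against 1.61% of all tested. The age effect in low light was the more positive for 250 (0.561%) and the more negative for 524 (1.18%), against 0.506% and 1.11% of all tested. After rescaling these were 368 and 329, so the direction of the majority followed the scaling. Without young low light replicate 2, 66 were called, and without replicate 3, 111.

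**Figure D5:**
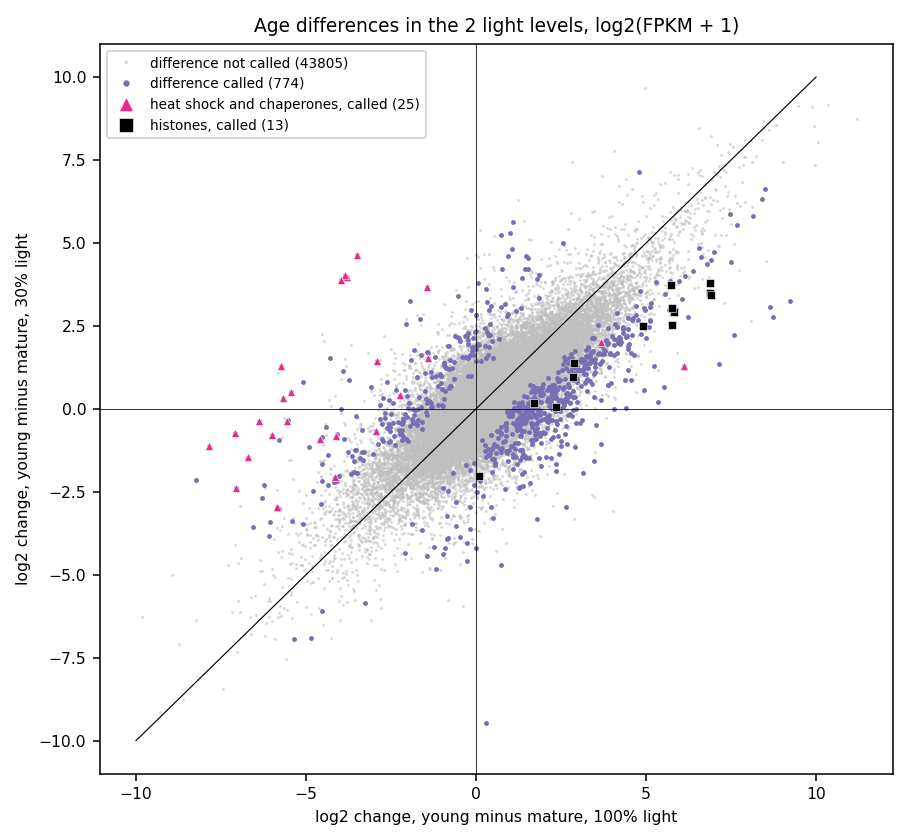
Log2 change between young and mature leaves in 30% light (vertical) against that in 100% light (horizontal), on log2(FPKM + 1), with 1 point per unigene and the line of equality. Most points follow the line. Of the 774 unigenes whose age effect differed, 25 were heat shock proteins and chaperones, 23 of them above the line, and 13 were histones, all below it.

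Heat shock proteins and chaperones keep other proteins folded. Among 189 heat shock and chaperone unigenes, the age effect in low light was the more positive for 23 and the more negative for 2. In low light itself 58 were called higher in young and 25 in mature leaves (35 and 50 after rescaling), so the majority turned with the scaling. Without young low light replicate 2 the age effect differed for 9 and 0, without young replicate 3 for 11 and 1, and without mature replicate 1 for 14 and 1. The 17.3 kDa class II heat shock protein CL4946.Contig2 was at 1011, 584 and 535 FPKM in young and 35.8, 12.7 and 40.4 in mature leaves under shade (log2 change 4.63, SE 0.55, adjusted p = 7.03e-05), and at 46, 19.9 and 12.7 and 261, 163 and 466 in full light (log2 change -3.51). Its age difference thus had opposite signs in the 2 light levels, without overlap in low light. Other chaperones were higher in mature leaves. The chaperone dnaJ 20 (CL1440.Contig1) was at 49.1, 34 and 41.6 in young and 419.9, 349 and 400.0 in mature leaves in low light (log2 change -3.21, adjusted p = 2.11e-06), and a DnaJ-domain protein (CL5990.Contig1) at 4.49, 5.37 and 3.49 against 61.4, 76.1 and 58.7 (log2 change -3.61, adjusted p = 7.77e-06).

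Histones had a smaller median difference in low than in full light. Of 36 unigenes 13 had a more negative age effect in low light and 0 a more positive one, and the list median was 0.98 in low against 2.39 in full light. The list held 0.3 ± 0.0598% (SD, n = 3) of summed FPKM in young leaves in low light and 0.806 ± 0.0846% in full light, against 0.205 ± 0.0385% and 0.177 ± 0.033% in mature leaves, and in low light the ranges of the ages overlapped. The number of calls moved with the libraries in the fit, to 0 without young replicate 2, 3 without young replicate 3 and 4 without mature replicate 1 of low light. Cell cycle unigenes had 0 more positive and 3 more negative among 144, where all 44579 unigenes had 0.561% and 1.18%. In the same order, antenna proteins had 0 and 2 among 34, and Calvin cycle unigenes 4 and 1 among 68. Photosystem subunits had 1 and 0 among 32, although their medians were -0.7 in low and -1.81 in full light. Without young low light replicate 2 each of these 4 lists had 0 and 0.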

How the data were processed

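Leaf RNA of 12 S. superba libraries was measured by RNA-seq. The deposited values are FPKM per unigene of a transcript assembly made without a reference genome. RSEM 1.2.12 is named for the estimates, per the submitters' processing notes, while the assembler, the aligner and the absolute depth are not given in the sources used here. Because FPKM depend on the abundance of all other unigenes in a library, a few very abundant unigenes can lower all others, hence the rescaled counts.

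From the deposited FPKM, log2(FPKM + 1) was fitted with limma 3.58.1 (R 4.3.3, trend, 4 group means over the 12 libraries) for the 50970 unigenes whose FPKM reached 1 in 3 or more libraries. P-values are two-sided with Benjamini-Hochberg adjustment, and calls have an adjusted p under 0.05. Library-level values were compared by exact permutation tests, two-sided. The fit was tested on simulated data. Gene lists (42 by function, 6 of markers) are word patterns on the descriptions of best hits. Cluster sums add the FPKM of all contigs with 1 CL number.

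Named unigenes were drawn by rule. It took the 15 largest changes each way at a mean FPKM of at least 10 and the 10 largest at 100 or more, without overlap between the ages. For these unigenes, also where they are named with a list, lack of overlap was thus a condition and no result. It also took up to 3 called per list and direction at a mean of at least 5, the 10 most abundant at each age, and the 6 largest differences each way between the light levels. All needed a usable description, and the text uses 124 of the 266 unigenes so found. Members, lists and rule were chosen with earlier results of these data known. Alternatives were another pseudocount, other filters, median-ratio and quantile scaling, a replicate block, a fit without trend, libraries left out or averaged and a 2-fold minimum.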

Additional observations from a re-analysis of the deposited data

Results flagged for a closer look

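The age difference in low light differed from that in full light, by the test of the difference itself (limma, Benjamini-Hochberg adjustment), for 774 of the 44579 unigenes. Differences below are the log2 age effect (young minus mature) in low light minus that in full light. Without young low light replicate 2, 66 unigenes were called, and 11 of the 20 described here lost their call. Without young replicate 3, 8 of the 20 did. None changed sign in any alternative. The calls that held in all of them were those of CL4946.Contig2, CL4946.Contig3, CL2489.Contig2, CL2489.Contig3, CL529.Contig6, Unigene1454, Unigene8528 and Unigene7807.

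Small heat shock proteins made up most of the largest positive differences. The 17.3 kDa class II protein CL4946.Contig2 had a difference of 8.14 (adjusted p = 0.0034) and CL4946.Contig3 of 7.77 (adjusted p = 0.00691). Of the 17.9 kDa class II proteins, CL2489.Contig2 had 7.88 (adjusted p = 0.00346) and CL2489.Contig3 7.86 (adjusted p = 0.00213). For CL2489.Contig2 the young libraries gave 178, 117 and 76.9 FPKM and the mature 9.91, 3.09 and 7.5 in low light, against 7.96, 4.27 and 3.25 and 95, 37.1 and 165 in full light. In these 4 contigs young leaves were the higher age under shade and the lower in full light. HSP18.1A (CL529.Contig6) had a difference of 6.71 (adjusted p = 0.0119), with young values of 86.1, 72.2 and 93.8 and mature values of 76.8, 123 and 655 in low light, which overlap, against 2.41, 3.84 and 1.91 and 948, 512 and 1185 in full light. The BAG family chaperone regulator 6 (CL1982.Contig4) had a difference of 7.03 (adjusted p = 0.0235).

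The largest difference in either direction belonged to Unigene7807, which has no best hit and was chosen after its values were seen, at -9.74 (adjusted p = 0.000335). Among described unigenes, gibberellin-regulated protein 3 (Unigene1454) had -5.96 (adjusted p = 0.0143). Its young values were 16.2, 1.71 and 11.9 FPKM in low and 447, 246 and 692 in full light, and it was listed at 0 in all 3 mature full light libraries, so the size depends on the pseudocount. A putative glutathione S-transferase (Unigene23863) had -5.14 (adjusted p = 0.0145), inositol oxygenase 1 (Unigene8528) -4.87 (adjusted p = 0.0143) and a putative anthocyanidin reductase (Unigene3742) -4.37 (adjusted p = 0.0201). For Unigene3742, mature leaves stood at 103, 64.1 and 134 in low and 3.26, 18.4 and 10.8 in full light. A dnaJ subfamily C member (CL6390.Contig1) had -4.8 (adjusted p = 0.0163) and an amino acid channel (CL2153.Contig1), also listed at 0 in all mature full light libraries, -4.73 (adjusted p = 0.0149). Summed over their clusters, the calls of CL6390.Contig1, CL2153.Contig1 and CL4528.Contig1 were lost, with -2.04 (adjusted p = 0.395), -0.30 (adjusted p = 0.533) and -2.03 (adjusted p = 0.157).

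Beyond those above, 7 unigenes named for their age difference in low light also differed between the light levels. Cinnamoyl-CoA reductase (Unigene13533) had a difference of 4.53 (adjusted p = 0.0279), with young leaves at 60, 44.7 and 53.7 FPKM in low and 0.96, 0.05 and 6.82 in full light. Alpha-amylase 3 (Unigene34612) had 1.87 (adjusted p = 0.0322). Histone H3.2 (Unigene88) had -3.1 (adjusted p = 0.0266) and histone H1C (Unigene7110) -2.11 (adjusted p = 0.0395). The pectin methylesterase inhibitor CL4528.Contig1 had -2.29 (adjusted p = 0.0181), ABP20 (Unigene38352) -2.1 (adjusted p = 0.0374) and Rubisco activase 1 (Unigene11021) -1.59 (adjusted p = 0.027).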

How the results depend on the processing

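The 18818 unigenes called for age in low light were 12131 with a mean FPKM of at least 5 and 10664 among those at 1 FPKM or more in all 6 libraries, an alternative chosen after seeing the data. Both alternatives test or count fewer unigenes. With each library left out in turn they were 14812 to 17138, and with the replicate block 17956. All other alternatives stayed within 1.5 times. Of the 128 named unigenes, 118 were called, and CL6277.Contig2 alone lost its call, turning to -0.36 (adjusted p = 0.371) summed over its cluster. A pseudocount of 0.1 raised CL6244.Contig1 from 3.63 to 6.84, CL1372.Contig3 from 4.17 to 6.56, Unigene1454 from 2.77 to 4.69 and CL3975.Contig2 from -6.27 to -9.57, as low values then weigh more. The 774 unigenes whose age effect differed between light levels were 454 with a pseudocount of 0.1, 44 with the replicate block, 255 without both low light libraries numbered 1, 104 with young replicates 2 and 3 averaged, and 66 to 670 with each library left out. With the block, histones gave 0 more positive and 0 more negative, heat shock and chaperone unigenes 11 and 1, cell cycle, antenna, Calvin cycle and photosystem lists 0 and 0, and 10 of 20 named unigenes lost this call. The cause was not tested. Same-numbered young and mature libraries correlated in their deviations from the group means at 0.324, 0.104 and 0.0999 in low light and 0.0295, 0.0308 and 0.287 in full light. Not every library correlated best with its own number, and no label ties the numbers to shared plants or days, so they were not taken as pairs. The difference in the share of the 100 most abundant unigenes, -10.7 percentage points (young minus mature), was -5.28 for the 10 and -13 for the 1000 most abundant, and -11.5 to -9.39 with a library left out. The difference of 5910 in unigenes at 1 FPKM or more was 2921 at 0.1 and 3290 at 10 FPKM or more, and 5382 to 6652 with a library left out, where the smallest exact p is 0.2. Read depth per library is unknown, so no counting error can be given. The likeness of young replicates 2 and 3 makes the spread of that group uncertain.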

Other observations

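Several of the largest differences belonged to unigenes without a usable description. They are outside the naming rule and were chosen after their values were seen. Unigene7807, without a best hit, stood at 0.21, 0 and 0 FPKM in young and 659, 550.0 and 1163 in mature leaves of low light (log2 change -9.46, SE 0.44, adjusted p = 1.24e-07), but at 1.33, 1.49 and 0 in young and 0, 0.21 and 1.66 in mature leaves of full light (log2 change 0.28, adjusted p = 0.64). Mature leaves under shade were thus the only one of the 4 groups with a value above 2 FPKM. Over the alternatives the adjusted p of the difference between light levels ran from 0.000277 to 0.0225.

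CL233.Contig5 shares a cluster with galactinol synthase contigs, and its best hit is a hypothetical protein. It was at 24, 9.85 and 7.75 FPKM in young and 4493, 6490.4 and 7049.8 in mature leaves of low light (log2 change -8.79, SE 0.4, adjusted p = 1.02e-07), and its cluster sum gave a log2 change of -5.82. Unigene31887, whose best hit is also a hypothetical protein, was at 0.1, 0.1 and 0.07 against 200.0, 337 and 800.5 (log2 change -8.44, SE 0.56, adjusted p = 1.15e-06). Unigene1269, without a best hit, had the opposite pattern, at 1036, 3256 and 1486 in young and 1.58, 0.62 and 5.75 in mature leaves (log2 change 9.14, SE 0.55, adjusted p = 6.71e-07). In each of these the 3 young and 3 mature libraries were apart by more than an order of magnitude.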
